A study of Mus musculus with 12 samples.

Results

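The regions described are 3317 short intergenic stretches of chromatin that carried a peak of H3K9/14ac, histone H3 acetylated at lysines 9 and 14, in all 6 ChIP libraries of mouse T helper 17 (Th17) cells. Overlapping or touching peaks of the 6 paired-end peak lists were joined into 56643 union regions. A union region was kept as a member when it was under 8000 bp, had a peak in every library, lay outside every protein-coding gene span of GRCm38, and was more than 2 kb and less than 100 kb from the nearest gene end. The members were thus chosen by measured peak presence and width in these libraries, and by position. They were 5.86% of all union regions and 16.5% of the 20108 regions with a peak in all 6 libraries. Each is named below by its nearest protein-coding gene, which gives a position and not a target.

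The series set wild type C57BL/6 cells (WT) against Slc2a3-fl/fl Cd4-cre cells (KO), with 3 ChIP libraries each. Slc2a3 encodes the glucose transporter GLUT3, and Cd4-cre deletes floxed alleles in T cells during their development; the labels do not say whether the WT mice carried Cd4-cre. In both groups naive T cells spent 3 days in Th17-polarizing culture and were then stimulated for 3 h with PMA and ionomycin, with Bref A and Monensin present. The chromatin of the 6 samples was barcoded inside nuclei and pooled for 1 immunoprecipitation, and the labels do not say whether replicates were separate mice, so the spread between libraries may be technical.

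Acetylation of H3 tails is laid down by acetyltransferases that use acetyl-CoA, is removed by deacetylases, and is found at active promoters and at distal regulatory elements. Acetylated stretches between genes can hold enhancers, which act on promoters from a distance, and the starts of long non-coding RNAs (lncRNAs), which lie outside the protein-coding annotation. In T cells such elements are known to be bound by AP-1, ETS, RUNX, ROR and STAT transcription factors, whose motifs were searched for here.

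Sequence can be shown where a member contains an annotated lncRNA start. Of the members, 279 (8.41%) overlapped the 300-base window from 250 bases before to 50 bases after such a start, against 8.57% of shared narrow regions within 2 kb of a gene end and 2.87% of those inside gene spans. The 4 windows below are from RefSeq on GRCm38.p6, written 5′ to 3′ on the strand of the lncRNA, and were picked after their values were seen. Ftx stands for members with high enrichment in all 6 libraries, Gm35584 for the lowest log2 fold change in KO, and A930003A15Rik and 1600002D24Rik for the highest among members over an lncRNA start. Capitals mark matches on either strand to AGGTCA (ROR, in Ftx) or TGTGGT (RUNX, in the other three).
Ftx: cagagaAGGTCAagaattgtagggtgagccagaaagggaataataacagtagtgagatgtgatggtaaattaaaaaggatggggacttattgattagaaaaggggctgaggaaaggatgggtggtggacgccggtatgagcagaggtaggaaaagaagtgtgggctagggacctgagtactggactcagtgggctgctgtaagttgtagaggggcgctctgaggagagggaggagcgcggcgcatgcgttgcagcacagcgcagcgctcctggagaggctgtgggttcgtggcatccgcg
Gm35584: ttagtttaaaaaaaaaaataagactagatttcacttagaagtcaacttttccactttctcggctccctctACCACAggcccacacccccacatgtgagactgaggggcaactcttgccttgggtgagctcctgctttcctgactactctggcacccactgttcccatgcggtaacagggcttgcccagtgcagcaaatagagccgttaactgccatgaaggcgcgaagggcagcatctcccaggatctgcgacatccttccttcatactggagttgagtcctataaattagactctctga
A930003A15Rik: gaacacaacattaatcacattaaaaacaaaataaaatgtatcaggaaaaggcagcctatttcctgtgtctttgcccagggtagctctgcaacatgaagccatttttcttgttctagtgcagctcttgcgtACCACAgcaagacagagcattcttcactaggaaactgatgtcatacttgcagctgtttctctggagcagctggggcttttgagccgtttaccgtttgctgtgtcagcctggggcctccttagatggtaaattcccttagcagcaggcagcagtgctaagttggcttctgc
1600002D24Rik: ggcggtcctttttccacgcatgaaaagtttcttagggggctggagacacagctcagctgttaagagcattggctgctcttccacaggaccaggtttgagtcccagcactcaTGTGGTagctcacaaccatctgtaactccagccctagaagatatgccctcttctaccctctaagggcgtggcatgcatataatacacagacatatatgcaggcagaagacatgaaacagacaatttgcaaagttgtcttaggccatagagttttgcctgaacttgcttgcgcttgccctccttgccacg

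The windows lie at chrX:103623705-103624004 (Ftx, minus strand), chr3:68761245-68761544 (Gm35584, plus strand), chr16:19884225-19884524 (A930003A15Rik, minus strand) and chr16:95898664-95898963 (1600002D24Rik, minus strand). They differ in base composition: the Ftx window was 54.0% G and C with 12 CpG pairs, and the A930003A15Rik window was 46.0% with 3. Over the 269 lncRNA start windows wholly inside members, the median was 52.0% G and C with 6.00 CpG pairs, while the 796 such windows inside shared narrow gene-end regions had 64.3% and 25.0. The lncRNA starts in members thus held fewer CpG pairs, which are dense in many mammalian promoters, than those at gene ends.

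The AP-1 motif TGANTCA occurred in 13% of the member windows, in 4.77% of the gene-end lncRNA windows, in 9.31% of all 11588 lncRNA windows and in 7.81% of all 32851 start windows in the table. AGGTCA (ROR) was found in 23.4% of member windows, 19.1% of all lncRNA windows and 16.3% of all windows, and GGAAGT (ETS) in 29.4%, 21.9% and 23.8%. TTCNNNGAA (STAT) stood in 11.5%, 9.41% and 8.30%. TGTGGT (RUNX) was about as frequent in member windows, 20.4%, as in all lncRNA windows, 20.0%, with 16.8% over all windows. In the gene-end lncRNA windows the shares were 11.9% for ROR, 24.9% for ETS, 12.6% for RUNX and 6.28% for STAT. Those windows were richer in G and C than member windows, and the part of base composition in the shares was not tested. Both strands were searched, and windows of 1 gene can overlap each other. A match is a description of the letters and not a binding site.

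Shared peaks stood at all CD4 T cell markers looked at, and also at some markers of other cell types. All 6 CD4 T cell markers (Cd4, Cd3e, Cd3d, Cd247, Thy1 and Lck) had a shared region on the gene or within 2 kb of it. So did 21 of 25 Th17 genes, Il17a, Il23r and Ccr6 among them, while Il22 had no peak in any library. The share was similar for other helper and regulatory lineages, with 20 of 25 genes, Tbx21 and Gata3 among them. Foxp3, Ifng and Il5 of that list had no peak. Of the B cell markers 2 of 8, Cd79a and Ebf1, had a shared region and 5 had no peak, Pax5 and Ms4a1 among them. Of the myeloid markers 4 of 8, Cd14, Csf1r, Itgam and Spi1, had a shared region and 4 had no peak. A peak also stood in all 6 libraries at 3 of 8 CD8 T and NK markers, Cd8b1, Klrd1 and Klrk1, and at 1 of 6 erythroid ones, Tfrc. On or near the gene, 4 CD8 T and NK markers (Cd8a, Gzma, Klrb1c and Ncr1) and 3 erythroid ones (Gata1, Hba-a1 and Hbb-bs) had no peak. Mean coverage by fragments, as worked out from the deposited peaks, was 3.99, 3.48 and 2.97 for WT and 1.85, 2.29 and 1.92 in KO, so the KO libraries were shallower (exact two-sided permutation test, p = 0.100, the smallest that 3 against 3 libraries allow). KO replicate 3 stood apart on chromosome Y, with 11 peaks against 1 or 2 in each of the other 5 libraries.

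Members had a median width of 2279 bp (quartiles 1404 and 3749 bp) and together covered 9.08 Mb. The median distance to the nearest gene end was 18017 bp, with quartiles of 7976 and 38710 bp. In 1507 members (45.4%) each library had a single peak, and in 1330 (40.1%) the highest summits of the 6 libraries fell within 150 bp of one another. The members were spread over 1984 nearest genes, 1291 of which had 1 member, and 163 genes with 4 or more members held 830 of them. At the limits of the rule, the widest member, of 7996 bp near Cetn4, stood beside a shared region of 8018 bp near Slamf6 that was left out, and the closest member, 2003 bp from Serpinf1, beside a region 1997 bp from Spred2. At the outer limit a member lay 99974 bp from Katnal1 and an excluded region 100116 bp from Rplp1.

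Enrichment at intergenic members was lower than at gene ends in every library and close to that inside genes. The authors' fold enrichment over local background, at the highest peak of each member, had medians of 5.44, 5.47 and 5.59 in WT and 5.78, 5.71 and 5.95 in KO. For shared narrow regions within 2 kb of a gene end the medians were 8.23, 8.61 and 8.94 in WT and 8.44, 8.20 and 8.38 in KO. Members thus lay below gene ends by 0.581 ± 0.0742 on the log2 scale (SD, n = 6 libraries, lower in 6 of 6). The exact two-sided sign-flip test gave p = 0.0312, the smallest possible, and 0.0469 after Benjamini-Hochberg adjustment over 6 tests. Those 6 include the 2 comparisons of peak length, which are not used as tests here. Without them the adjusted value would be larger, so it is not read as passing 0.05. Both sets were kept by called peaks in all 6 libraries, a filter on the same enrichment, and by width. The libraries also shared 1 immunoprecipitation, so the p describes these 6 libraries and no wider set. Against shared narrow regions inside gene spans and over 2 kb from gene ends, members were higher by 0.0585 ± 0.0399 (log2, SD, n = 6, higher in 6 of 6). The exact sign-flip p was 0.0312, and its adjusted value, 0.0469, has the same limit. That small gap was not seen in summit height relative to mean coverage, where the mean difference was 0.00 (exact sign-flip p = 1.00).

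**Figure D1:**
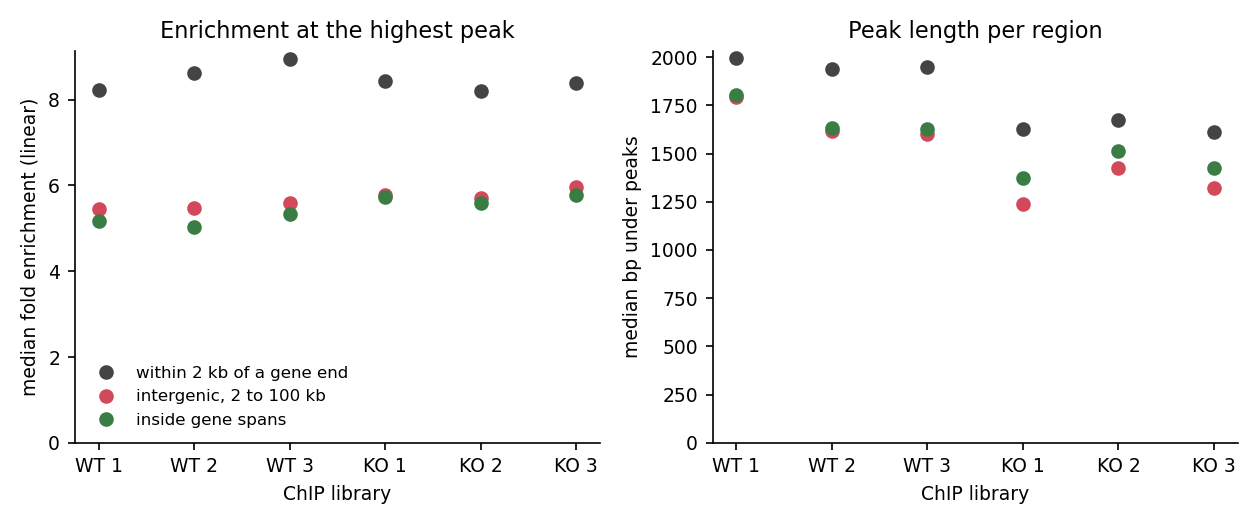
Median fold enrichment at the highest peak (left, linear) and median base pairs under peaks per region (right) in each of the 6 ChIP libraries, for members, gene-end regions and gene-body regions, 1 point per library and class. Members lie below gene-end regions in both panels in all 6 libraries, and beside gene-body regions.

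The length of chromatin under peaks was also shorter at members than at gene ends. The median peak length per member came to 1794, 1617 and 1599 bp for WT and to 1239, 1423 and 1321 bp for KO, so every KO library lay below every WT library. The same held at gene ends (1995, 1937 and 1948 bp in WT, 1626, 1674 and 1613 bp in KO). It held inside genes too (1804, 1633 and 1626 bp in WT, 1373, 1514 and 1424 bp in KO). The KO libraries were also shallower, and the part of depth in these lengths was not tested. The mean difference from gene-end regions was -300 bp (SD 67.1, n = 6 libraries), and that from gene-body regions was -63.4 bp (SD 52.5). With the single-read peak lists the latter was -3.0 bp. Region width entered the choice of members, so these lengths are a description with no test. The enrichment gap to gene ends was -0.64 ± 0.04 in WT and -0.52 ± 0.03 in KO (log2, SD, n = 3 each; exact permutation p = 0.100, adjusted 0.100). The gap to gene-body regions was 0.09 ± 0.03 in WT and 0.03 ± 0.01 in KO, with the same p values by the exact test. In both the groups did not overlap, and the design cannot pass the 0.05 threshold. With summit height per mean coverage in place of fold, the genotype difference of the gap to gene ends was 0.04 (exact permutation p = 0.60) in place of 0.12, and the libraries overlapped, with gaps of -0.79, -0.98 and -0.94 in WT and -0.90, -0.84 and -0.85 in KO.

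For the comparison of genotypes, the authors' deposited table gives a log2 fold change of KO against WT for the best window (150 bp) of each of 40909 tested regions, with an FDR and no value per library. A tested region overlapped 3170 members and 147 had none. In the authors' deposited table, 1382 of those members (43.6%) were lower in KO at an FDR under 0.05 and 339 (10.7%) were higher, against 46.3% lower and 12.7% higher over all tested regions. The call rate of members in either direction was 54.3%, and 59.0% of all tested regions were called in the authors' deposited table. Because a peak in all 6 libraries was asked of every member, these shares describe the members and support nothing more. A weaker mark in every cell and a mark lost from some of the cells cannot be told apart in bulk chromatin.

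The median log2 fold change of members in the authors' deposited table was -0.58, with quartiles of -1.01 and 0.24, and that of all tested regions was -0.62. A change of at least 1 on the log2 scale with an FDR under 0.05 was listed for 808 members downward (25.5%) and 137 upward (4.32%) in the authors' deposited table, beside 26.9% and 7.39% of all tested regions. Values near 0 were rare: 3.41% of members lay between -0.25 and 0 and 2.93% between 0 and 0.25 in the authors' deposited table, which reports 1 window for each region. The labels do not say how the libraries were scaled for the table. On a scale that sets equal mean coverage, the values of the authors' deposited table shift by 0.33, the median of members becomes -0.26 and that of all tested regions -0.30. The calls past a size of 1 become 370 lower and 316 higher on that scale, so the share that is higher moves from 14.5% to 46.1%. A scale of equal coverage takes out any difference between genotypes in the total amount of the mark.

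**Figure D2:**
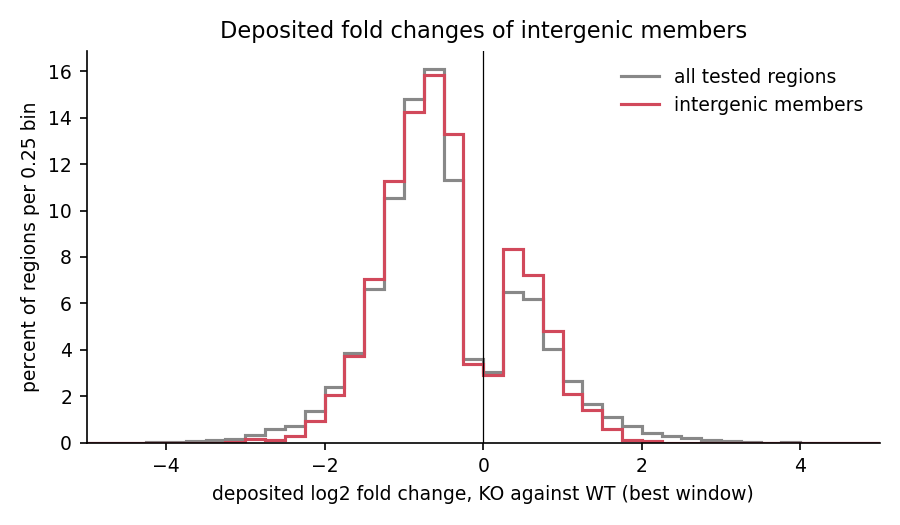
Distribution of the log2 fold change of KO against WT in the authors' deposited table, in bins of 0.25 (x axis), as the percent of regions per bin (y axis), for members (red) and all 40909 tested regions (grey). Both have a larger mode below 0 and a smaller one above it, with a trough at 0, and the members have fewer values in both outer tails.

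Summit heights per library gave a second view of the same members. The height in fragments, recovered from each peak's fold and p and divided by the library's mean coverage, had a median over members of 26.83, 26.99 and 26.94 in WT and 27.03, 27.07 and 27.08 in KO. Thus the typical member summit was as tall relative to mean coverage in KO as in WT, with a median log2 ratio of 0.04 and quartiles of -0.31 and 0.39. Dividing by each library's own coverage takes out any difference in the total amount of the mark. The input libraries were not used, so a change of that total was not tested. At gene ends the median ratio was 0.00 and inside genes 0.12. Every KO library was below every WT library in 794 members (23.9%) and above every WT library in 931 (28.1%). Over the 20107 regions with a height in all 6 libraries the shares were 19.0% and 25.7%, and 59.0% of all tested regions were called in either direction in the authors' deposited table, which is another measure.

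The 2 measures ranked members alike and differed in level. Over the 3170 members the deposited log2 fold change and the log2 summit ratio had a Pearson r of 0.886 and a Spearman rho of 0.876, a description in which both measures come from the same 6 libraries. Of the 1382 members called lower in the authors' deposited table, 1213 had a summit ratio below 0, and in 758 every KO height was under every WT height, whereas in 40 every KO height was over every WT height. Of the 339 called higher, 338 had a summit ratio above 0 and in 318 every KO height was above every WT height. A best window can lie on the flank of a region, away from its summit.

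**Figure D3:**
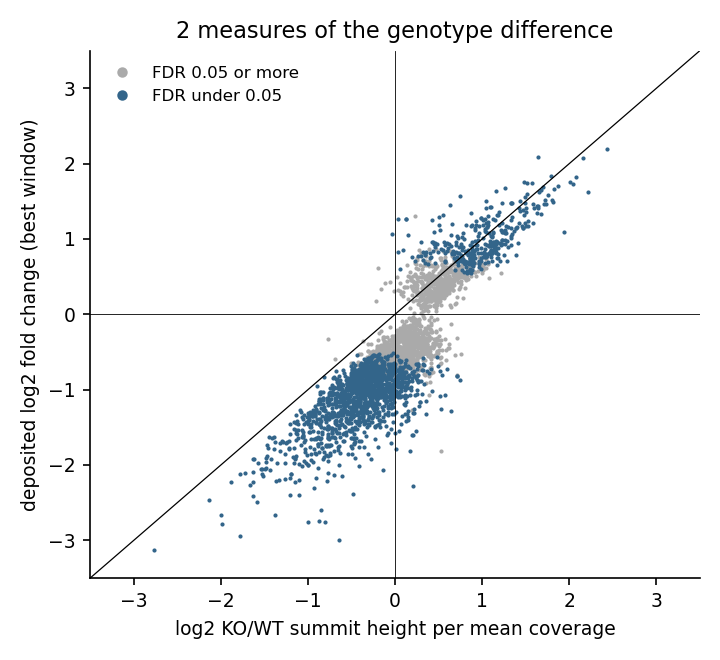
Each point is 1 of 3170 members: log2 of the KO to WT ratio of mean summit height per mean coverage (x axis) against the log2 fold change in the authors' deposited table (y axis), blue where the FDR is under 0.05; the diagonal marks equal values. Members called higher lie near the diagonal, and most members called lower lie below it.

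The members with the lowest deposited values lost height at the summit as well. Beyond the end of Ptpn11, the gene of the tyrosine phosphatase SHP-2, a member at chr5:121103924-121109882 had heights of 91.3, 87.6 and 81.5 times mean coverage in WT and 15.1, 12.7 and 10.4 in KO. The log2 fold change there was -3.14 (FDR 1.34e-41) in the authors' deposited table, the lowest of all members. Near Mdfic, 35.5 kb before its start, a member at chr6:15680680-15685064 had 67.2, 76.1 and 83.8 in WT and 21.6, 20.1 and 15.6 in KO, with -2.78 (FDR 2.57e-29) in the authors' deposited table. In both, every KO library was far below every WT library.

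The member that holds the start of Gm35584, shown above, lies at chr3:68758439-68764738, 59.9 kb beyond the end of Il12a, which encodes the p35 subunit of interleukin-12 and interleukin-35. Its heights were 59.2, 66.0 and 69.0 in WT and 21.6, 17.5 and 17.2 in KO, and the authors' deposited table gives -2.95 (FDR 1.47e-31). At chr2:11157727-11164899, 7.0 kb before the start of Prkcq, the gene of the protein kinase C of the T cell receptor pathway, heights were 49.9, 60.3 and 54.2 in WT and 34.1, 35.8 and 35.4 in KO. There the summits fell to 35.1 ± 0.921 from 54.8 ± 5.23 (SD, n = 3 each), a smaller step than the -2.99 (FDR 9.20e-29) listed for the best window in the authors' deposited table. Members near Matr3 and Svil, at -2.75 each in the authors' deposited table, had means of 91.8 ± 13.9 and 39.0 ± 1.26 in WT and 52.4 ± 5.22 and 19.5 ± 3.38 in KO. In each of these 6 members the genotypes did not overlap; the low values chose them, so no test is given.

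The 6 members with the highest deposited values were among the lower summits in WT and gained height in KO. The highest log2 fold change, 2.2 (FDR 4.95e-12) in the authors' deposited table, belonged to a member at chr3:36348041-36350334, 98.6 kb beyond the end of Anxa5, which encodes a phospholipid-binding annexin. Its heights were 7.27, 8.90 and 6.06 in WT and 39.5, 35.4 and 45.3 in KO. Before the start of Map2k6, a kinase that activates p38, a member at chr11:110379692-110384016 rose from 19.6, 16.9 and 16.2 to 72.4, 76.9 and 62.5, with 1.76 (FDR 6.54e-17) in the authors' deposited table. In both members every KO library was above every WT library. The high values chose the 6 members, so no test is given.

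A member 40.3 kb from the start of Ube2e2, a ubiquitin-conjugating enzyme, at chr14:18934589-18940075 had 24.3, 15.5 and 15.5 in WT and 85.4, 79.5 and 68.2 in KO (1.83 in the authors' deposited table). The members near Dcn, Gramd3 and Papss1, with 2.09, 2.08 and 1.83 in the authors' deposited table, had KO means of 29.6 ± 1.94, 58.4 ± 11.9 and 22.8 ± 9.92 and WT means of 9.49 ± 1.45, 13.1 ± 1.18 and 6.62 ± 1.09 (SD, n = 3). Papss1 had the widest KO spread, with 14.6, 20.1 and 33.9, and even its lowest KO library was above the highest WT library, 7.47.

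**Figure D4:**
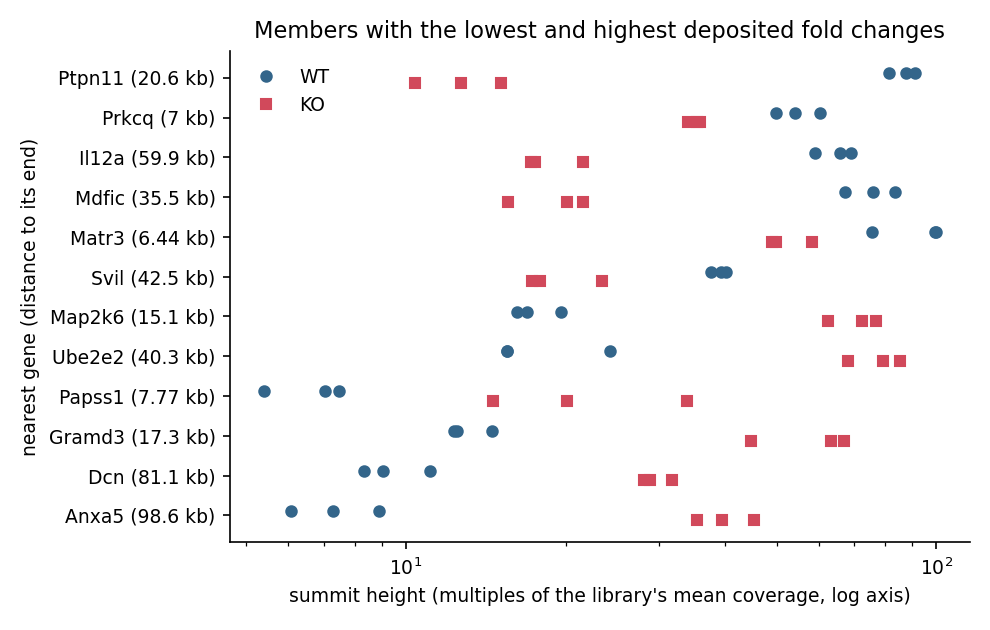
Summit height of the 6 members with the lowest and the 6 with the highest log2 fold change in the authors' deposited table, as multiples of each library's mean coverage (x axis, log scale), 1 point per library, named by the nearest gene and its distance (y axis). WT (circles) and KO (squares) do not overlap in any of the 12, which were chosen by their fold changes.

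Members with the highest enrichment in all 6 libraries had tall summits in both genotypes. They were chosen by a high fold in every library, so this follows from the choice. By their lowest fold over the libraries they included members near Psd2 (20.8), Tgds (19.1), Siah3 (18.8), Zcchc13 (18.2) and Sting1 (18), beside a median of 3.78 over all members. Near Siah3, chr14:75443450-75447324 had heights of 148, 157 and 148 in WT and 144, 167 and 175 in KO, and the groups overlapped. The member near Tgds, chr14:118088665-118090772, had 173, 169 and 188 in WT and 158, 180 and 180 in KO, also overlapping, although its best window is listed at -1.20 (FDR 7.89e-07) in the authors' deposited table.

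Ftx, an lncRNA of the X-inactivation centre known to act on Xist, starts in the member near Zcchc13, chrX:103620823-103624214. Its heights were 145, 175 and 148 in WT and 164, 155 and 92.7 in KO, the last value being that of KO replicate 3. With all 6 libraries the log2 ratio was -0.19, and without that library it was 0.03, while the authors' deposited table gives -0.86 (FDR 0.000154). Chromosome X held 75 members, and 45 of the 74 tested (60.8%) were called lower by the authors' deposited table. The share was 43.2% for members on autosomes and 46.3% over all tested regions. The median height of the X-linked members was 28.08, 26.42 and 26.26 in WT and 25.95, 24.89 and 24.48 in KO, so KO replicates 1 and 2 also lay below all WT libraries. The part of KO replicate 3, with its chromosome Y peaks, in the deposited X-linked values was not tested.

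Members over an lncRNA start had shares called lower like those of gene-end regions. Of the 275 tested, the authors' deposited table calls 159 (57.8%) lower and 22 (8.0%) higher, with a median of -0.77, against 42.2% lower, 10.9% higher and a median of -0.56 for members over none. For gene-end regions the authors' deposited table gives 57.9% lower and 4.74% higher with a median of -0.74, and for gene-body regions 37.4%, 13.2% and -0.50. The members with the starts of A930003A15Rik and 1600002D24Rik went the other way. At the first, chr16:19881191-19886783, 59.7 kb beyond the end of Klhl6, heights were 26.3, 19.5 and 20.2 in WT and 55.7, 62.0 and 69.3 in KO. At the second, chr16:95895126-95902315, they were 83.7, 69.2 and 81.1 in WT and 111, 110 and 112 in KO, and the authors' deposited table lists 1.41 and 1.29 for them. No library of one genotype reached those of the other in either member.

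A microRNA precursor that is made outside protein-coding genes also fell in a member. The member at chr10:122983126-122988277, 3.78 kb from Mon2, contains let-7i, of the let-7 family that is abundant in differentiated cells. Its mature 5p sequence from RefSeq is shown with the seed, bases 2 to 8, in capitals.
let-7i-5p: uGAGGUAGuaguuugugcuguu

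Heights at the let-7i member were 109, 106 and 111 in WT and 80.0, 82.1 and 96.4 in KO, without overlap, and the authors' deposited table gives -0.69 (FDR 0.00406). The member with miR-193a, chr11:79710970-79712546, did overlap between genotypes, with 20.6, 29.0 and 25.3 in WT and 20.0, 25.3 and 22.9 in KO.

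Of the gene lists, that of genes switched on early by stimulation had the most members, 77. Tnfaip3, which encodes the NF-kB inhibitor A20, was the nearest gene of 13 members, more than any other. The tallest, chr10:19060655-19064209, 45.2 kb before its start, had 72.0, 88.7 and 82.8 in WT and 109, 128 and 132 in KO. All KO summits there were higher, while its best window is at -0.73 (FDR 0.0406) in the authors' deposited table. Beyond the 3′ end, the member at chr10:18981569-18983640 had 22.8, 34.7 and 28.3 in WT and 12.4, 18.3 and 18.8 in KO, and its listed value was -1.33 (FDR 1.02e-06) in the authors' deposited table. So the summits around 1 gene moved in both directions.

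**Figure D5:**
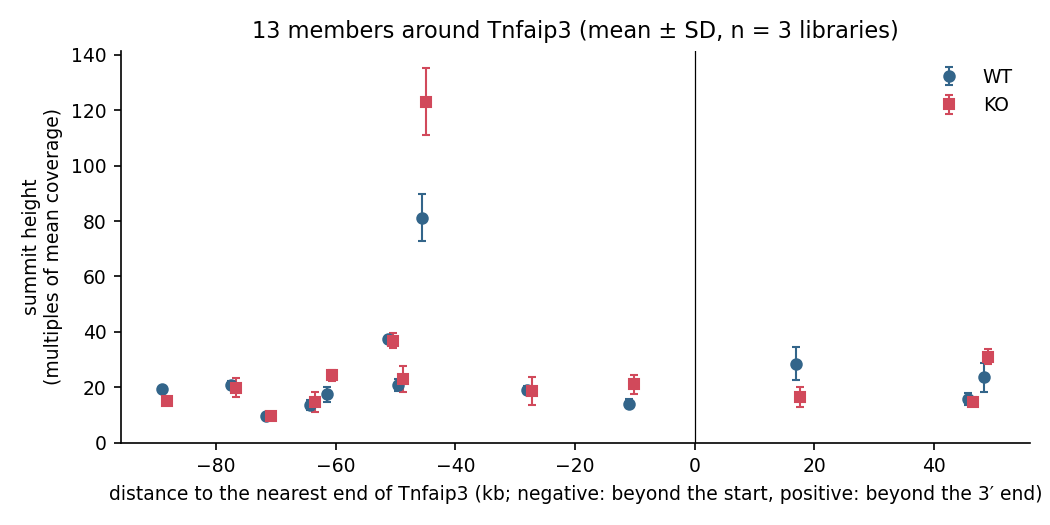
Summit height of the 13 members nearest to Tnfaip3 in multiples of mean coverage (y axis, mean ± SD of 3 libraries per genotype) against distance from the nearest end of the gene (x axis, kb, negative before the start); WT and KO points are offset sideways. The member 45.2 kb before the start is the tallest in both genotypes.

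The early-gene list has 44 genes, and its 77 members lay at 23 of them. The authors' deposited table has 40 of the 73 tested lower and 5 higher, at a median of -0.80, where all tested regions have 46.3% lower, 12.7% higher and a median of -0.62. The members lower included all 4 near Egr2 and all 5 near Dusp5, a phosphatase that acts on ERK. Closest to Dusp5, chr19:53518108-53522398 had 78.0, 86.7 and 91.6 in WT and 46.5, 51.1 and 39.1 in KO, without overlap (-1.86, FDR 1.97e-10 in the authors' deposited table). Members near the AP-1 genes Fosb and Fos were among those higher. The Fosb member, chr7:19318651-19321509, had 19.3, 21.8 and 26.3 in WT and 47.6, 52.8 and 54.2 in KO (1.36, FDR 3.35e-08 in the authors' deposited table), and the member 18.8 kb before Fos had 18.8, 16.9 and 20.2 in WT and 28.1, 35.8 and 40.1 in KO. Near Jun, also of AP-1, 2 members were called lower and 1 higher, so members of 1 gene were split. Near Il2, the T cell growth factor, both members had lower best windows in the authors' deposited table (-1.17 and -1.12); the more distant had 68.9, 79.5 and 69.4 in WT and 49.7, 45.4 and 35.9 in KO.

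The list of T cell identity and receptor signalling genes, 38 genes, had 33 members at 17 of them. By the authors' deposited table, lower calls numbered 20 of 32, higher calls 1, and the median was -0.84 (all tested regions: 46.3%, 12.7% and -0.62). All 3 members near Tcf7 and all 3 near Ets1, transcription factors of T cell development, were lower. The Tcf7 member with the greatest height had 42.4, 55.1 and 41.4 in WT and 29.2, 26.2 and 22.9 in KO. Lcp2 encodes the adaptor SLP-76, and its member had 44.9, 47.7 and 52.5 in WT and 26.5, 24.5 and 15.1 in KO (-1.34 in the authors' deposited table). The exception, 61.9 kb from the costimulatory receptor gene Cd28, had 21.6, 22.1 and 26.6 in WT and 40.5, 49.3 and 49.5 in KO (0.82, FDR 0.00248 in the authors' deposited table). Both members near Cd5 overlapped between genotypes, at 84.1 ± 3.4 in WT and 85.4 ± 1.59 in KO for the more enriched one (SD, n = 3).

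Among 25 Th17 lineage genes, 13 were nearest to a member, 28 members in all. The authors' deposited table calls 12 of the 26 tested lower and 1 higher, with a median of -0.65, so the share lower and the median were close to the 46.3% and -0.62 of all tested regions (12.7% higher). The member 4.93 kb beyond the end of Il23r, the receptor chain for interleukin-23, was among the tallest, with 127, 127 and 126 in WT and 131, 137 and 162 in KO (-0.25, FDR 0.972 in the authors' deposited table). One of 4 members near Il21, chr3:37263182-37266914, had 52.4, 51.7 and 54.9 in WT and 31.9, 47.6 and 30.2 in KO (-1.32, FDR 1.16e-06 in the authors' deposited table). The Il17f member, 6.42 kb before the start, had 30.3, 21.2 and 22.2 in WT and 23.2, 17.9 and 15.6 in KO, and the groups overlapped (-0.75, FDR 0.00509 in the authors' deposited table). The 1 called higher, near the chemokine gene Ccl20, overlapped too, with 32.6, 17.2 and 20.9 in WT and 34.6, 32.8 and 28.1 in KO.

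Members near genes of other helper and regulatory lineages numbered 20, with 11 lower and 2 higher of 20 tested in the authors' deposited table and a median of -0.81, beside 46.3%, 12.7% and -0.62 over all tested regions. Ctla4, the inhibitory receptor, was nearest to 8 of them. The most enriched, chr1:60895181-60902320, had 118, 122 and 113 in WT and 85.9, 103 and 86.5 in KO (-1.77, FDR 1.94e-15 in the authors' deposited table), and another, 52.4 kb before the start, had 66.4, 63.2 and 64.3 in WT and 72.4, 86.0 and 80.7 in KO (0.78, FDR 0.00561 in the authors' deposited table). Both kept the genotypes apart, in opposite directions. Near Icos, a costimulatory receptor, a member had 75.2, 77.0 and 70.7 in WT and 31.9, 46.7 and 41.7 in KO, and near Tbx21, the Th1 regulator T-bet, one had 8.52, 10.6 and 10.1 in WT and 17.8, 18.8 and 16.7 in KO.

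The list for chemokine receptors, homing and adhesion had 22 members, 10 lower and none higher in the authors' deposited table, with a median of -0.60. The share lower and the median were near those of all tested regions, 46.3% and -0.62 (12.7% higher). The members near Itgb1 had listed values from -0.38 to 0.51 with no call in the authors' deposited table. Itgal encodes the LFA-1 alpha chain, and its member had 42.1, 48.0 and 43.1 in WT and 23.8, 25.3 and 22.9 in KO (-1.72, FDR 1.86e-12 in the authors' deposited table). Both members near S1pr1, a receptor for exit from lymph nodes, were lower there as well (-1.41 and -1.57 in the authors' deposited table).

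Of 23 genes of glucose uptake and glycolysis, 4 were nearest to a member, and of 25 genes of acetyl-CoA supply and histone acetylation none was, although 22 and 25 had a shared region on or near the gene. The member 6.89 kb from Slc2a3, the gene deleted in KO, at chr6:122809254-122812744 had 174, 166 and 163 in WT and 155, 160 and 172 in KO. The summits overlapped, and its best window is listed at -1.71 (FDR 4.78e-09) in the authors' deposited table. Near Slc16a1, the lactate transporter MCT1, heights were 88.5, 69.5 and 73.1 in WT and 118, 120 and 126 in KO (0.43, FDR 0.660 in the authors' deposited table), and near Mpc1, a mitochondrial pyruvate carrier subunit, 17.8, 12.6 and 13.5 in WT and 25.9, 23.6 and 28.6 in KO (0.85, FDR 0.0129). The Ldha member, 2.44 kb from the gene of lactate dehydrogenase A, had 29.8, 29.9 and 31.0 in WT and 38.9, 39.3 and 33.9 in KO, while its best window was at -1.06 in the authors' deposited table. At all 3 of these genes each KO summit was above each WT summit, relative to mean coverage.

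Markers of other cell types were rarely nearest to a member, and those of CD4 T cells had only 1 member, near Thy1. There were 1 member for B cell markers (Ebf1), 3 for myeloid markers (Adgre1 and Itgam), 3 for CD8 T and NK markers (all Klrb1c) and 1 for erythroid markers (Tfrc). The Tfrc member, at a transferrin receptor gene that proliferating T cells also use, had 64.7, 83.6 and 85.5 in WT and 29.2, 37.1 and 31.8 in KO, and the Ebf1 member 33.1, 33.9 and 32.7 in WT and 21.6, 15.7 and 21.4 in KO. None of the 3 Klrb1c members was called.

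Members resembled the nearest gene end in part, more so when close to it. For 1839 members the nearest gene end had a tested region of its own, and over these pairs the log2 fold changes of the authors' deposited table had a Pearson r of 0.390 (Spearman 0.362). Within 2 to 5 kb r was 0.608 (n = 287) and from 50 to 100 kb it was 0.338 (n = 292), a description over pairs that share the 6 libraries and, for some members, the same gene end. Of 810 members called lower with such a pair, 524 (64.7%) had a gene end also lower, beside 50.1% over all pairs, and in 24 (2.96%) it was higher, by the calls of the authors' deposited table. Of 190 called higher, 45 (23.7%) had a gene end that was higher, beside 7.45% over all pairs, and 58 (30.5%) one that was lower. By distance, the share called lower in the authors' deposited table was 47.1% at 2 to 5 kb, 41.9% at 5 to 10 kb, 42.6% at 10 to 20 kb, 47.5% at 20 to 50 kb and 37.1% at 50 to 100 kb. Members alone at their gene were lower in 49.2% and those at genes with 4 or more members in 37.3%, by the same table of the authors. Beside these shares stand 43.6% over all members and 46.3% over all tested regions, and the differences were not tested.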

How the data were processed

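H3K9/14ac ChIP libraries (3 WT, 3 KO) were grouped by their titles; the 6 input libraries were not used. Per the submitters' processing notes, MACS2 2.2.6 was among the tools, with Bowtie2 2.3.5.1, cutadapt 2.8, deepTools 3.3.2 and bcl2fastq 2.20.0.422, on build GRCm38 (mm10). In the peak lists, called per library, the authors deposited a score per peak, the summit's fold over background as a ratio, and p-values and q-values as -log10; the lowest -log10 q was 3.00. The authors' deposited table gives a log2 fold change, a p-value and an FDR for 40909 regions of 150 bp windows; the labels name neither its program nor its scaling. A negative value means lower in KO, since 99.9% of 1572 tested regions with peaks only in WT were negative, and 0.467% of 643 with peaks only in KO.

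Peaks were joined into union regions and set against 21900 protein-coding genes of GRCm38.p6. A member took the value of the tested region sharing most base pairs; 24128 spans were listed, 16571 were rebuilt from windows over single-read peaks (98.8% of listed spans were rebuilt exactly), 209 were placed by best window and 1 was not located. Whole summit heights (tolerance 0.03 fragments) were recovered from fold and p for 100.0% of peaks, and mean coverage from the lowest background; 100.0% of simulated peak heights were returned exactly. The recovered coverage of 1.85 to 3.99 limits the precision of heights in the KO libraries most. The shift to equal coverage was read from 2183 regions.

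Tests were exact sign-flip or permutation tests over libraries, adjusted over 6 results. The 2 on peak length are given without p, since width entered the choice of members. They were still counted in the adjustment, and without them the adjusted values of the 2 enrichment gaps would be larger. Members and lists were chosen with earlier results of these data known. Members were named when they had the 6 highest values of lowest fold, the 6 lowest or highest log2 fold changes with an FDR under 0.05, up to 3 per gene list by lowest fold, the 3 genes with most members, or lay next to a limit of the rule, passing over nearest genes with Gm or Rik names; other members were chosen after their values were seen. One member that the rule names is not reported here. Emb and Tnfsf11, with 9 members each, tied with 4 other genes and were placed by total width. Same-numbered WT and KO libraries had correlations of deviations of 0.01, -0.01 and 0.04, so the numbers did not pair them. No genome was used, so sequences come from RefSeq start windows and microRNAs. Alternatives are given at the end. Python 3.11.15, pandas 2.3.3, numpy 2.4.6, scipy 1.17.1 and matplotlib 3.10.9 were used.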

Additional observations from a re-analysis of the deposited data

How the results depend on the processing

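The alternatives were other peak lists and thresholds, other width and distance limits, no sex chromosomes, other scalings, and each library left out. The count of members, and the counts called where the choice of members changed, stayed within 1.5 times. At equal coverage the deposited FDR was kept, so the calls could not change, but calls past a log2 size of 1 went from 808 to 370 lower and from 137 to 316 higher. Both genotype differences of the gaps kept their direction; their p cannot pass the threshold under any setting. With recovered heights they were 0.04 (exact p = 0.60) for gene ends and -0.12 (exact p = 0.100) for gene bodies. The median log2 fold change of members became -0.64 with single-read peaks and -0.26 at equal coverage. The enrichment gap to gene-body regions was 0.00 (exact p = 1.00) with recovered heights. The width gap to gene-body regions was -3.0 bp with single-read peaks and -71.4 bp with a -log10 q of at least 5. With 1 library left out, 5 libraries cannot go below an exact p of 0.0625, so no gap can pass the threshold. The enrichment gap then ran from -0.63 to -0.58 against gene ends and from 0.05 to 0.06 against gene bodies, and the width gap from -381 to -337 bp and from -77.6 to -65.0 bp. The member count ran from 3501 to 3679, since a peak was asked for in fewer libraries, and members lower in KO from 1417 to 1529. Under a replicate block, the genotype differences of the gaps stayed 0.12 and -0.06 (exact p = 0.25 each), and the pairing check gave correlations near 0. Of 144 values under alternatives, 115 stayed on the same side, 27 lost the threshold and 2 moved. Much of this tally was fixed beforehand by the limits given above, and it includes the peak-length gaps, which are not used as tests. It is therefore no measure of how stable the results are. Depth limits the heights of low members, which rest on few fragments in KO.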

Other observations

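Further members over microRNAs and known lncRNAs were measured. The member over the start of Snhg20, which also holds miR-6516, had 25.6, 36.2 and 42.1 times mean coverage in WT and 28.6, 24.0 and 28.6 in KO, and the groups overlapped. The member at the start of Snhg15, a host of small nucleolar RNA, 4.63 kb before Myo1g, had 108, 142 and 140 in WT and 54.1, 58.5 and 85.9 in KO, with no overlap (-1.56, FDR 1.76e-15 in the authors' deposited table). The member over D230017M19Rik near Pecr reached 228, 283 and 277 in WT and 344, 302 and 340 in KO, again with no overlap, and its best window is listed at -0.53 (FDR 0.110) in the authors' deposited table.

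Emb, which encodes the adhesion protein embigin, was the nearest gene of 9 members that ran in both directions. The member 84.3 kb before the start had 24.8, 22.1 and 28.6 in WT and 35.1, 40.2 and 31.2 in KO, and the one 6.35 kb beyond the end 33.3, 24.7 and 30.0 in WT and 11.9, 16.6 and 14.1 in KO. Both kept the genotypes apart, and they are listed at 0.82 and -1.95 in the authors' deposited table. Tnfsf11, the gene of the cytokine RANKL, also had 9 members, with listed values from -0.89 to 0.58 in the authors' deposited table, of which 2 were called, both lower.

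Between Il2 and Il21, neighbouring members differed in direction at the summit when heights were set against mean coverage. A member nearer to Il21, chr3:37173555-37176815, had 73.5, 80.4 and 73.7 in WT and 84.9, 86.0 and 82.3 in KO, and the member next to it and nearer to Il2, chr3:37171491-37173222, had 68.9, 79.5 and 69.4 in WT and 49.7, 45.4 and 35.9 in KO. On this scale their summits differed between genotypes in opposite directions, although both best windows are lower in KO in the authors' deposited table, at -1.36 and -1.12. The log2 summit ratio of the member nearer to Il21 was 0.15, less than the shift of 0.33 between the deposited scale and equal coverage. The opposite directions thus depend on the scaling. Near Ier3, an early gene, the member chr17:35812187-35815613 also had summits and best window in opposite directions, with 84.5, 84.1 and 82.5 in WT, 149, 145 and 126 in KO, and -0.88 (FDR 0.0116) in the authors' deposited table.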
